A study of Mus musculus with 4 samples.

Results

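Replication-dependent histone cluster genes are the genes whose symbol starts with Hist1h, Hist2h, Hist3h or Hist4. They were chosen by symbol alone, through GENCODE M21 names of the Ensembl IDs, and 62 of the 38282 genes in the tables belonged to them. They fall into 6 linker histone (H1), 20 H2A, 16 H2B, 7 H3 and 13 H4 genes, and 59 are annotated as protein coding. GENCODE M21 holds 70 such symbols. The other 8 (5 H3 and 3 H2B) were not matched by ID and were not analysed here.

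RNA was sequenced from splenic naive CD4+ T cells of C57BL/6 mice, harvested on day 4 of Th0 culture, a condition in which T cells are activated with no lineage-directing cytokine added. The Th0 group had no dopamine and the Th0+Dopa group was treated with dopamine, a catecholamine. Each group held 2 libraries, numbered 2 and 3, and all 4 came from the same strain, tissue and culture condition. The dose and timing of dopamine, the age of the mice and any pooling of animals were given in no source used here.

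Core histones (H2A, H2B, H3 and H4) form the nucleosome, and linker histone H1 binds the DNA where it enters and leaves it. The cluster genes are transcribed mainly in S phase, from gene clusters that recruit NPAT, and supply histones for newly copied DNA. Their mRNAs usually lack a poly(A) tail and end instead after a short stem-loop, which is bound by SLBP (stem-loop binding protein). The libraries were made from total RNA depleted of ribosomal RNA, so mRNA without a poly(A) tail was not selected against.

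The stem-loop was present in the annotated transcripts of 38 of the 62 genes, in 2 forms that differ in the stem. The search was for GGCTCTTTTNAGAGCC and GGCCCTTTTNAGGGCC in the sense of the transcript, each a 6-base stem around a 4-base loop. These transcripts are shown because they are among the most abundant of their class or have a different loop, 5′ to 3′ on GRCm38, with the stem-loop in capitals and 5 bases on each side.
Hist1h4d (H4, chr13:23581945-23581970, plus strand): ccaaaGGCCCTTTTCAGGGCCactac
Hist1h4f (H4, chr13:23551286-23551311, minus strand): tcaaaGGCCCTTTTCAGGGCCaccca
Hist2h4 (H4, chr3:96262934-96262959, minus strand): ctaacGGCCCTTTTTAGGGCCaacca
Hist1h1e (H1, chr13:23621777-23621802, minus strand): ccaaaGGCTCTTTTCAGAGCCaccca
Hist1h3c (H3, chr13:23745042-23745067, minus strand): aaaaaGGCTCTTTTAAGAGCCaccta
Hist1h2bb (H2B, chr13:23747198-23747223, plus strand): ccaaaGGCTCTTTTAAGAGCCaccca
Hist2h2ac (H2A, chr3:96220413-96220438, minus strand): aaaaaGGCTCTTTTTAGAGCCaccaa

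The form with the GGCCCT stem was found in 9 H4 genes and in no listed member of another class. The form with the GGCTCT stem was found in 29 members, 4 H1, 11 H2A, 8 H2B and 6 H3, and in no H4 gene. Among 21901 protein-coding genes of GENCODE M21, 35 (0.16%) held the GGCTCT form and 33 of these had a histone cluster symbol. The GGCCCT form was in 10 (0.0457%), of which 9 were cluster genes and the other was H2afx, which codes for H2A.X, the variant phosphorylated at DNA breaks. A transcript without a match says only that its annotated model does not hold these letters: 12 of the 24 members without either form had models under 400 bases.

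With dopamine, RNA of the histone cluster genes was higher, in every class. Levels are in FPKM, fragments per kilobase scaled for library size, by options that are given in no source used here. Of the 62 members, 55 had a mean of at least 1 FPKM over the 4 libraries and were tested. Each of these 55 was above 1 FPKM in every library, so none was tested only because its level was high in 1 group. In limma's moderated test with Benjamini-Hochberg adjustment over 11423 genes, 46 of the 55 rose (adjusted p under 0.05), 0 fell and 9 were not called. Over all genes tested, 6.28% were called higher and 4.39% lower. At an unadjusted p under 0.05, 47 of the 55 and 3177 of all 11423 genes differed, in either direction. In both tables the Th0+Dopa value was above the Th0 value for 51 of the 55, against 37.6% of all genes tested. The median difference of the tested members was 1.44 on the log2(FPKM + 1) scale, and that of all genes tested was 0.03. It was 1.65 between the libraries numbered 2 and 1.28 between those numbered 3. Differences are Th0+Dopa minus Th0, with the standard error after ±.

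The summed FPKM of the 62 members was 7793 without and 26012 with dopamine in the libraries numbered 2, and 6978 without and 17889 with it in those numbered 3. Both dopamine sums lay above both Th0 sums, by 3.34-fold within the table of libraries 2 and 2.56-fold within that of libraries 3. A sum over a class depends less than a single copy on how reads were divided among near-identical listed genes. It does not cover reads shared with genes that were not listed. For Hist1h3e, Hist1h3a and Hist1h3b, the gene sharing the most sequence was itself not listed. H4 RNA had the largest sums, 2704 and 2541.5 in Th0 2 and Th0 3 and 12274 and 8232 with dopamine, ratios of 4.54 and 3.24. H3 sums were 621 and 536 in Th0 and 2587 and 1587 with dopamine, ratios of 4.17 and 2.96. H2A sums were 773 and 726 against 3041 and 2089, ratios of 3.93 and 2.88. H2B sums were 1725 and 1496 against 4531 and 3172, ratios of 2.63 and 2.12. H1 had the smallest ratios, 1.82 and 1.67, with sums of 1969 and 1678 in Th0 and 3579 and 2809 with dopamine. The makeup of the summed histone RNA shifted with these ratios. The H4 share of the members' sum was 34.7% and 36.4% in the Th0 libraries, against 47.2% and 46.0% in the dopamine libraries. The H1 share was 25.3% and 24.0%, against 13.8% and 15.7%. FPKM divides by the length of the annotated model. In GENCODE M21, the models of 18 of the 38 members with a stem-loop run over 100 bases past it. The shares of the classes, and the ranks of abundance by FPKM, depend on such lengths. The sums also leave out the genes not matched by ID, 5 of H3 and 3 of H2B, so these classes are incomplete. The shares, and the order of the classes by sum or ratio, depend on this too. The sums are a description, and the differences between classes were not tested.

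**Figure D1:**
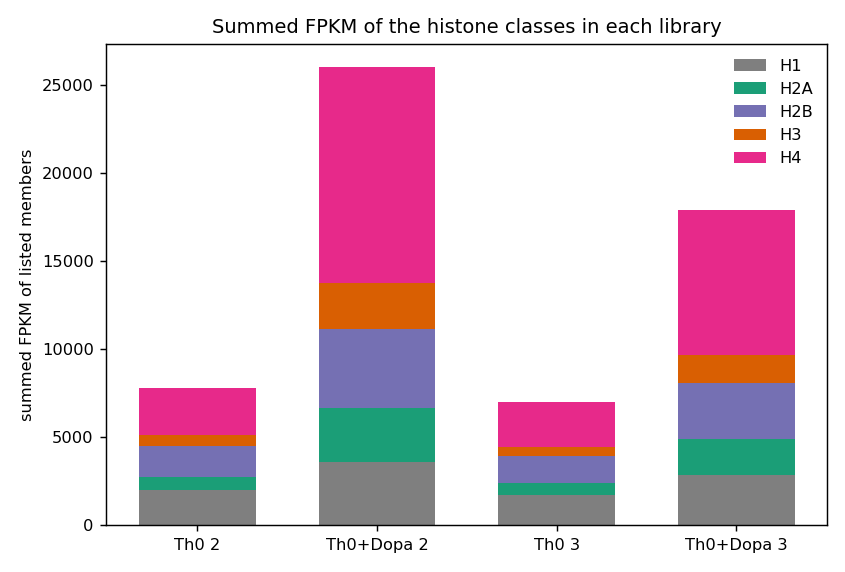
Summed FPKM of the 62 listed members in each of the 4 libraries (y axis, linear from 0), stacked by histone class. The dopamine bars reach 26012 and 17889, above the Th0 bars at 7793 and 6978, and the H4 part grows more than the H1 part.

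Of 5 tested genes of H1, the linker histones, 4 rose, with a median over the 5 of 0.89, the lowest of the 5 class medians. That order turned with the correction for GC content and length: the median was then 0.80 for H1, 0.63 for H2A, 0.72 for H2B, 0.73 for H3 and 1.797 for H4. These medians lie close apart from that of H4. With the correction fitted without the members, the H1 median was slightly below that of H2B and above those of H2A and H3. Hist1h1e was the most abundant, at 769 FPKM without and 1446 with dopamine in the libraries numbered 2, and 625 and 1139 in those numbered 3. Both dopamine values lay above both Th0 values, with a difference of 0.89 ± 0.11 (limma adjusted p = 0.010). Hist1h1c rose most of the H1 genes, by 1.03 ± 0.11, from 368 and 298 FPKM in Th0 to 802 and 569 with dopamine. Hist1h1b rose from 318 and 265 to 585 and 529 FPKM, and Hist1h1d from 140.2 and 129 to 278 and 198. Hist1h1a was not called at levels as high as these: it had 373 and 360.4 FPKM in Th0 and 469 and 373 with dopamine, a difference of 0.19 ± 0.12 (limma adjusted p = 0.35). Hist1h1a and Hist1h1b share no stretch of 50 bases with another GENCODE M21 gene, so their values do not rest on a division of reads between copies at that length. Hist1h1t, the testis-specific linker histone, was under the filter and listed at 0 in the libraries numbered 2.

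H2A genes, which code for the histone that pairs with H2B, included some of the largest differences. Of 16 tested, 14 rose, and the median over the 16 was 1.37. With the correction for GC content and length, 8 of the 16 were called higher and the median was 0.63. Hist1h2ak was the most abundant, at 175 and 166 FPKM in Th0 2 and Th0 3 and 793 and 569.8 with dopamine. Hist2h2ac, on chromosome 3, had 193 and 194 FPKM in Th0 and 597 and 431 with dopamine, and Hist1h2ab had 139 and 133 against 465 and 293. All 3 had dopamine values above both Th0 values. With that correction Hist2h2ac kept its call at 0.68, and Hist1h2ak (0.28) and Hist1h2ab (0.28) lost theirs. With the correction fitted without the members, Hist1h2ak kept its call at 0.52 and Hist1h2ab, at 0.43, did not. Hist1h2af rose most, from 13.3 and 13.3 FPKM to 228 and 142, a difference of 3.66 ± 0.18. Hist1h2al, annotated as a processed pseudogene, rose from 29.6 and 28.8 to 291 and 202 FPKM, a difference of 3.01 ± 0.14. Of their 50-base stretches, 94.0% (Hist1h2af) and 67.6% (Hist1h2al) occur also in other genes, so these single values are uncertain. Hist3h2a, on chromosome 11, rose from 33.5 and 26.5 to 86.0 and 57.6 FPKM, and Hist2h2ab, on chromosome 3, from 12.3 and 10.7 to 33.7 and 28.8. Hist1h2ap (5.72 and 4.56 FPKM in Th0, 9.68 and 5.95 with dopamine) and Hist1h2ao (3.40 and 2.26, 3.61 and 3.99) were not called. These are near copies of each other: 93.1% of the 50-base stretches of Hist1h2ap are in Hist1h2ao.

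H2B genes code for the partner of H2A in the nucleosome. Of 14 tested, 10 rose, and the median over the 14 was 1.31. Hist1h2bb was the most abundant, at 736 and 651 FPKM in Th0 2 and Th0 3 and 1296 and 923 with dopamine. Its difference, 0.66 ± 0.13, was the smallest of the H2B genes called (limma adjusted p = 0.035). Hist1h2bg rose from 216 and 237 to 680.3 and 549 FPKM, and Hist1h2bj from 237 and 149.6 to 644 and 434. Hist1h2bk rose most, by 2.75 ± 0.10, from 49.9 and 36.8 to 356 and 244 FPKM, followed by Hist1h2bc at 1.89 ± 0.22. Neither H2B gene on chromosome 11 was called. Hist3h2ba had 23.4 and 17.2 FPKM in Th0 and 44.8 and 21.5 with dopamine, so that its values overlapped between groups. The pseudogene Hist3h2bb-ps had 37.3 and 31.3 FPKM in Th0 and 43.4 and 37.1 with dopamine, which also overlap. Within each table both genes were higher with dopamine, with ratios of 1.91 and 1.25 for Hist3h2ba and 1.16 and 1.19 for Hist3h2bb-ps. Hist2h2be (1.76 and 2.04 FPKM in Th0, 1.57 and 1.74 with dopamine) and Hist1h2br (4.82 and 1.56, 2.96 and 1.47) were low and not called. Their differences were -0.13 ± 0.29 and -0.31 ± 0.28.

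H3 genes split into high and low copies. Of 7 tested, 5 rose, and the median over the 7 was 1.39. Hist1h3e had 134 and 116 FPKM in Th0 2 and Th0 3 and 665 and 370.1 with dopamine, and Hist1h3c had 109 and 88.5 against 644 and 396. Hist1h3a rose from 165 and 149.8 to 518 and 329 FPKM. In each, both dopamine values lay above both Th0 values. Hist2h3b, on chromosome 3, rose most of the H3 genes, by 2.88 ± 0.12, from 37.6 and 30.1 to 317 and 204 FPKM. Hist2h3c1 (2.25 and 1.73 FPKM in Th0, 1.69 and 1.77 with dopamine) and Hist2h3c2 (2.15 and 1.10, 1.71 and 2.04) were not called, and their groups overlapped. All 50-base stretches of Hist2h3b and Hist2h3c1 occur also in other genes.

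All 13 H4 genes were tested and all 13 rose, with a median of 1.92. H4 pairs with H3 at the core of the nucleosome, and its gene copies code for the same protein. Hist1h4d had the highest level of any member in each library, at 811 FPKM without and 3148 with dopamine in the libraries numbered 2, and 912 and 2210.1 in those numbered 3. Its difference was 1.62 ± 0.19 (limma adjusted p = 0.0077). Hist1h4f rose from 596 and 501 to 2429.8 and 1557 FPKM, and Hist1h4c from 510.4 and 464 to 1957 and 1389. Hist1h4k (chr13:21750194-21750505, minus strand) had the largest difference of all members, 4.35 ± 0.11 (limma adjusted p = 9.35e-05). It had 30.7 FPKM without and 692 with dopamine in the libraries numbered 2, and 19.7 and 396 in those numbered 3, ratios of 22.5 and 20.1 within the tables. By the estimate of what 1 fragment is worth, these levels rest on about 37, 761, 18 and 448 fragments. Hist1h4k has the shortest transcript model among the members, 312 bases, and 71.5% of its 50-base stretches occur in other genes. Hist1h4j followed at 2.89 ± 0.11, from 46.5 and 31.3 to 379 and 221 FPKM. The copies outside chromosome 13 rose as well. Hist2h4 on chromosome 3 rose by 1.40 ± 0.16, from 33.9 and 35.4 to 112 and 77.7 FPKM. Hist4h4 on chromosome 6 rose by 1.67 ± 0.17, from 18.9 and 18.1 to 76.1 and 48.9 FPKM. Of the 50-base stretches of Hist2h4, Hist4h4 and Hist1h4d, 1.01%, 8.14% and 10.2% are shared with other genes.

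**Figure D2:**
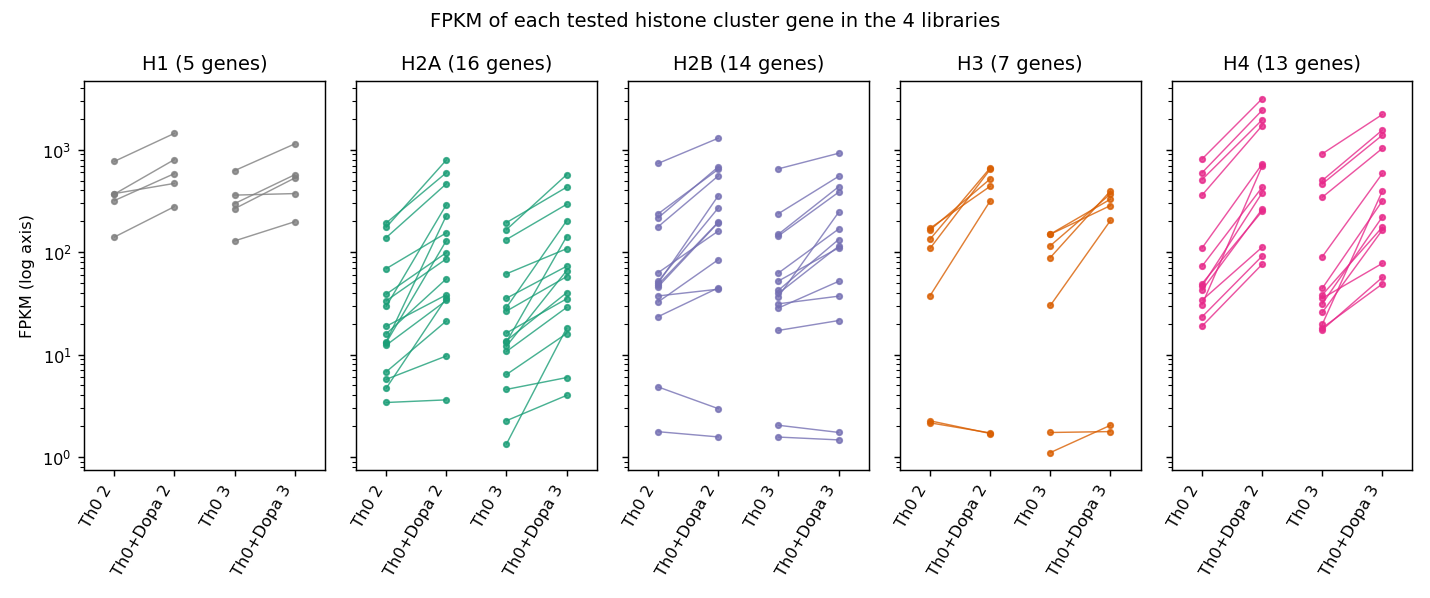
FPKM (log axis) of each of the 55 tested members in the 4 libraries, by class, with a line joining the 2 libraries of a table. Most lines slope upward in every class, and the falling lines belong to genes under 5 FPKM.

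**Figure D3:**
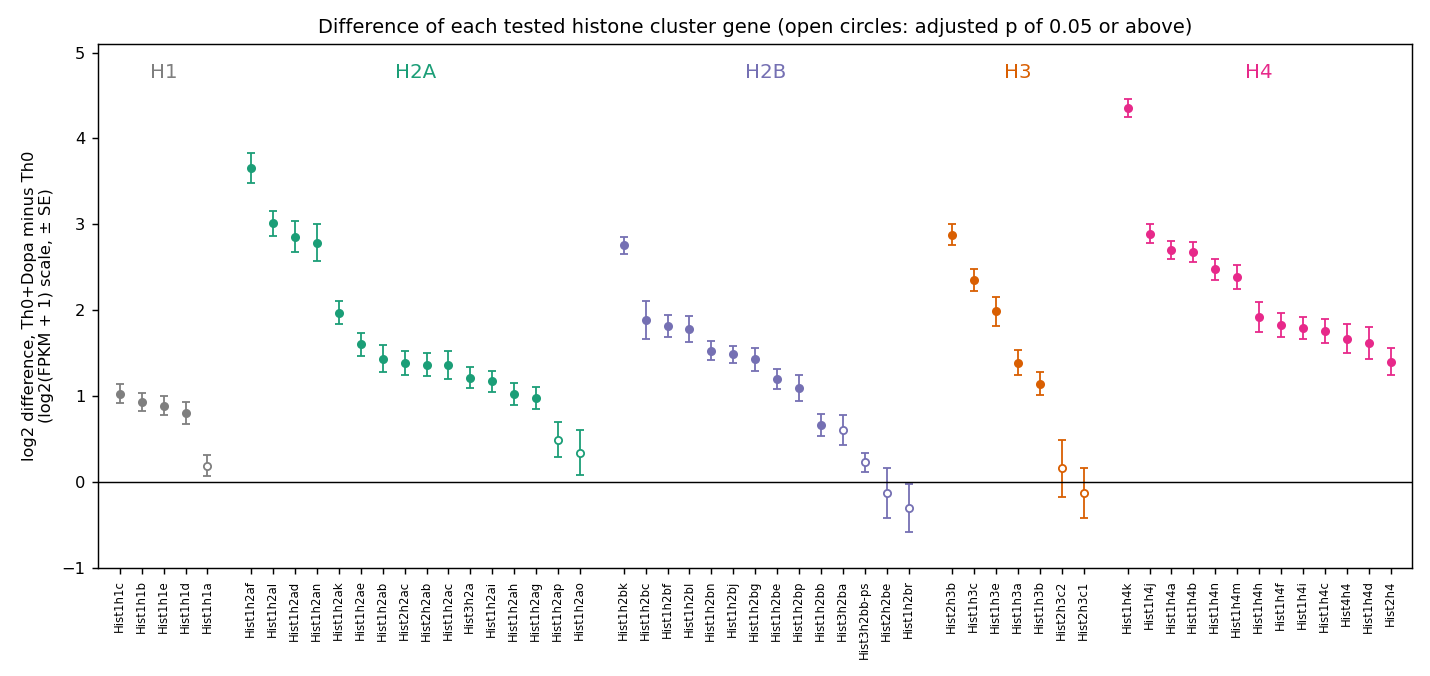
Log2 difference with its standard error for each tested member, by class and in falling order, with filled circles for the 46 called higher. Hist1h4k stands highest at 4.35, and the 9 open circles lie between -0.31 and 0.60.

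The spread among members was compared with how far their sequences are shared, because the division of reads among near-identical copies is uncertain. Of 11 tested members with under 20% of their 50-base stretches shared, 9 rose, with a median of 1.20 and a range of -0.13 to 1.76. Of 20 with 20% to 60% shared, 18 rose, with a median of 1.46. Of 24 with 60% or more shared, 19 rose, with a median of 1.797 and a range of -0.31 to 4.35. Most members with mostly unique sequence rose too, and the largest differences belong to genes with shared sequence. This order was not tested.

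Members rose in each of the gene clusters. On chromosome 13 lie 49 of the 62 members. In the stretch chr13:21715763-21837530, 11 of 14 tested members rose, with a median of 1.65. In chr13:22035164-22043676, 5 of 5 rose, with a median of 1.48. In chr13:23531050-23934851, 23 of 24 rose, with a median of 1.61, the exception being Hist1h1a. On chromosome 3, 4 of 7 rose and on chromosome 11, 1 of 3. The stretches differ in which classes they hold, and their differences were not tested.

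Genes with and without an annotated stem-loop rose. All 9 H4 genes with the GGCCCT stem rose (median 1.79), 21 of 26 tested genes with the GGCTCT stem rose (median 1.20), and 16 of 20 tested genes without a match rose (median 1.83). H2afx, singled out after its values were seen, had 23.8 FPKM without and 188 with dopamine in the libraries numbered 2, and 17.8 and 125 in those numbered 3, a difference of 2.84 ± 0.11 (limma adjusted p = 0.00041). This lies above the 9 H4 genes with the GGCCCT stem, which run from 1.40 (Hist2h4) to 2.48 (Hist1h4n). The H2afx difference lies within the ranges of all 13 H4 genes (1.40 to 4.35), of the H2A genes (0.34 to 3.66) and of the H3 genes (-0.13 to 2.88).

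Promoter windows, 250 bases before to 50 after the start, were found in RefSeq (GRCm38.p6) for 55 members with 56 windows, and were searched on both strands. CCAAT, the NF-Y motif, was in 47 windows (83.9%), against 37.4% of 32851 windows of all genes. It was in every window of H1, H2A, H2B and H3 genes and in 3 of 12 windows of H4 genes. TATAAA was in 57.1% of the members' windows and 13.6% of all. The octamer ATTTGCAT, a motif of the Oct-1 factor (Pou2f1), was in 12 windows (21.4%, against 1.74% of all), 7 of H2A and 5 of H2B genes. Windows of neighbouring genes read in opposite directions can overlap, so a site that they share is counted for both genes. The windows below are shown because neighbouring H2A and H2B genes, read in opposite directions, share an octamer. The octamer, or its reverse complement, is in capitals.
Hist1h2bg (chr13:23571329-23571360, plus strand): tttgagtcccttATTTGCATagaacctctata
Hist1h2ae (chr13:23571329-23571360, minus strand): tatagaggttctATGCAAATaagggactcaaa
Hist1h2bk (chr13:22035779-22035810, plus strand): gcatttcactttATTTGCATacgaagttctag
Hist1h2ah (chr13:22035779-22035810, minus strand): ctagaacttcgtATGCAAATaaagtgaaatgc

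The genes of the first pair rose by like amounts, Hist1h2bg by 1.43 ± 0.14 and Hist1h2ae by 1.60 ± 0.13. Those of the second pair did not: Hist1h2bk rose by 2.75 ± 0.10 and Hist1h2ah by 1.02 ± 0.12. Of their 50-base stretches, 74.2% (Hist1h2bk) and 92.1% (Hist1h2ah) occur also in other genes, so these single values are uncertain. For Hist1h2bg and Hist1h2ae, 49.7% and 43.2% do. With the GC and length correction Hist1h2ah was at -0.57 and not called, while Hist1h2bk, Hist1h2bg and Hist1h2ae kept their calls. The pairs were chosen after their values were seen, and the difference within a pair was not tested. A match is a description and not evidence of binding.

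Differences went with transcript length, among members and among the other tested genes as a whole. Across the 55 tested members, the difference and the log2 transcript length had a Pearson r of -0.43 and a Spearman rho of -0.44. For the difference and GC content these were 0.34 and 0.27. The median GC content of tested members was 64.4% for H2A and 56.2% for H4. These are descriptions across genes that share libraries and sequence. Among core histone members, 10 of 10 tested under 400 bases rose (median 2.33), 17 of 20 of 400 to 600 bases rose (median 1.41), and 15 of 20 of 600 bases or longer rose (median 1.41). Of tested genes that are not members, those under 400 bases had a median of 0.43 (99 of 463 higher), those of 400 to 600 bases 0.18 and those over 2000 bases -0.04. Among protein-coding genes outside the clusters, 38 of 177 of 400 to 600 bases were higher (median 0.23). The 14 under 400 bases did not follow the order, with a median of -0.18, 2 higher and 3 lower. Small RNA was also higher: 48 of 127 tested snoRNA genes rose (median 1.60), and small RNA genes took 18.3% and 16.5% of summed FPKM in Th0 2 and Th0 3 and 26.0% and 20.6% with dopamine. When each table's differences were corrected for GC content and length, 39 members were called higher, with a median of 1.03, and Hist1h2ai turned from a difference of 1.17 to -0.72 (limma adjusted p = 0.039). The 7 members whose call was lost were Hist1h2ab, Hist1h2ag, Hist1h2ah, Hist1h2ai, Hist1h2ak, Hist2h2ab and Hist1h2bb, and all 13 H4 genes kept theirs. The correction takes GC content and length together, so the part of each in these losses was not tested. With the correction fitted without the members, a setting chosen after seeing the data, 41 were called higher and the median was 1.20. The part of fragment length in the differences was not tested.

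**Figure D4:**
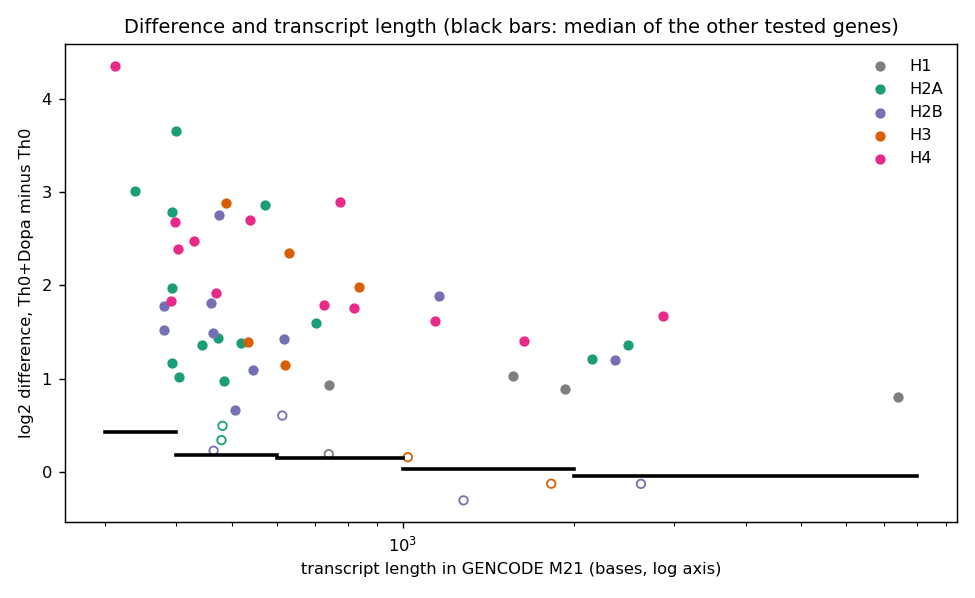
Log2 difference (y axis) against transcript length (log axis) for the 55 tested members, coloured by class, with filled circles for those called higher. Black bars give the median of the other tested genes in 5 length ranges, from 0.43 under 400 bases to -0.04 over 2000, and most members lie above them.

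Of 32 tested genes of histone gene transcription and mRNA processing, 2 rose and 1 fell, with a median of 0.00. Over all genes tested, 6.28% rose and 4.39% fell, so the count is near the background. Slbp, which binds the stem-loop, had 103 and 127 FPKM in Th0 2 and Th0 3 and 106 and 122 with dopamine. Npat, the coactivator of histone genes, had 24.2 and 23.1 against 20.2 and 22.2. Casp8ap2, which codes for the FLASH protein of the histone locus body, had 37.98 and 43.4 against 28.5 and 31.6 FPKM (limma adjusted p = 0.079). Lsm11, a part of the U7 snRNP that cuts the histone mRNA, had 3.88 and 5.28 against 7.91 and 5.45 FPKM. None of these 4 was called. Snrpb and Snrpe, Sm proteins of the spliceosome, rose by 0.82 ± 0.11 and 0.46 ± 0.10. Ccne2, cyclin E2, fell by 0.96 ± 0.20 on the log2 scale.

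Of 31 DNA replication genes, 3 rose and 0 fell (median 0.12), and these counts and those of the next lists are also to be read against 6.28% higher and 4.39% lower over all genes. Pcna, the sliding clamp, had 405 and 421 FPKM in Th0 and 409 and 393 with dopamine. The genes that rose were Cdt1 (1.01 ± 0.18), which loads the replicative helicase, Pold1 (0.86 ± 0.12), a DNA polymerase subunit, and Tk1 (0.55 ± 0.11), thymidine kinase. Of 20 mitosis genes, 0 rose and 1 fell (median -0.18): Mki67, the proliferation marker, fell by 0.71 ± 0.12, from 131 and 133 to 70.9 and 90.5 FPKM. Of 26 histone chaperone genes, 0 rose and 2 fell (median -0.07). Those that fell were Anp32e, an H2A.Z chaperone, by 0.96 ± 0.10 and Atrx, which deposits H3.3, by 0.56 ± 0.10. Asf1b (-0.17 ± 0.12) and Chaf1a (0.06 ± 0.13), which take new H3 and H4 to the replication fork, were not called. With libraries scaled to a common sum, 8 mitosis genes and 6 chaperone genes were called lower, while 46 histone cluster genes were called higher and 49 of the 55 stayed positive. With that scaling 1440 of all 11423 genes were called in either direction, and the median difference of all genes was -0.20. With the GC and length correction the calls of Ccne2, Atrx, Cdt1, Pold1 and Tk1 were lost and those of Snrpb, Snrpe, Anp32e and Mki67 were kept.

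Among replication-independent histone genes, whose mRNAs mostly carry a poly(A) tail, 2 of 9 tested rose, with a median of 0.20. These were H2afx, whose annotated transcript holds the GGCCCT form of the stem-loop, and H2afj. The rise of H2afj was 1.29 ± 0.17, from 22.7 and 26.0 to 70.5 and 52.3 FPKM. H2afz had 699 and 640.4 FPKM in Th0 and 1092 and 815 with dopamine (limma adjusted p = 0.065), and H3f3b had 515 and 502 against 471 and 457. The difference between these genes and the cluster genes was not tested.

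**Figure D5:**
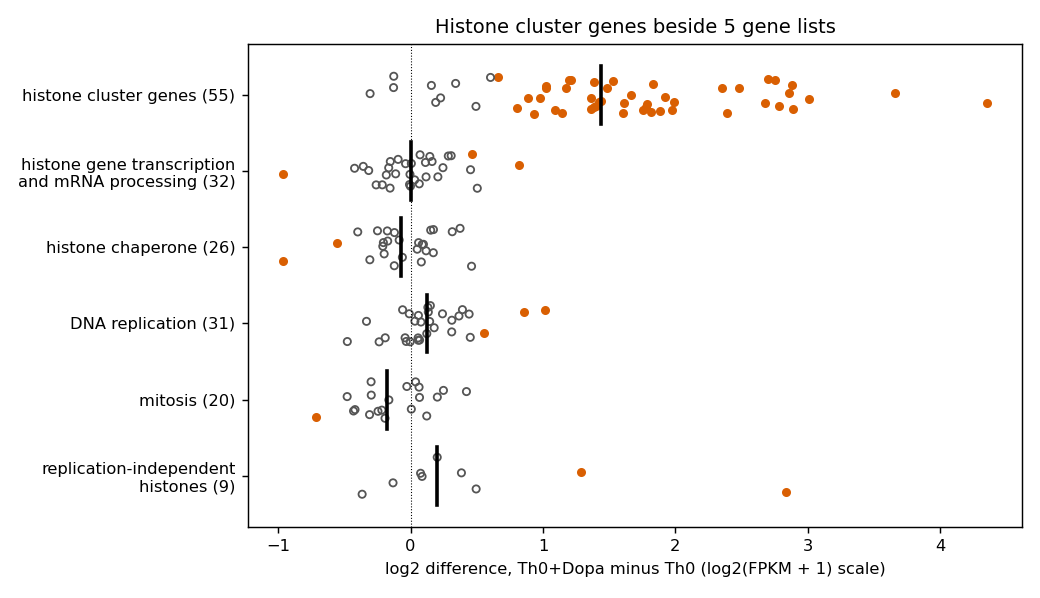
Log2 difference of each tested gene among the histone cluster genes and 5 other lists, with filled circles for genes called and a black line at the median. The histone line lies at 1.44, and the medians of the other lists lie between -0.18 and 0.20.

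Markers of myeloid cells were lower with dopamine. All 8 tested of 9 granulocyte and mast cell markers fell, and their summed level was 446 and 593 FPKM without dopamine against 50.04 and 46.5 with it. Of 12 macrophage and dendritic cell markers, 11 fell, from sums of 463 and 616 to 62.3 and 62.9 FPKM. Elane, a neutrophil elastase, was under the filter and not tested, at 0.93 and 0.74 FPKM without dopamine and 0 in both dopamine libraries. Of the 7 B cell markers and the 5 CD8 and NK cell markers, 1 each was tested and neither was called, with sums of 2.75 and 5.85 FPKM without dopamine and 3.96 and 5.202 with it for B cells, and of 4.5996 and 4.45 against 6.39 and 5.63 for CD8 and NK cells. None of 5 erythroid markers passed the filter, and their sums were 1.31 and 1.35 against 2.08 and 0.907 FPKM. Of 15 T cell markers, 4 rose and 1 fell, with sums of 2491 and 2437 without dopamine and 2697 and 2514 with it. Cd4 had 122 and 123 FPKM against 115 and 119.8. The part of these cells in the histone differences was not tested, and in such bulk samples fewer cells of a type and less RNA per cell cannot be told apart.

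The calls rest on 2 libraries a group. Without the mean-variance trend in the moderation, 23 members were called higher, and 256 of all 11423 genes were called in either direction. With any 1 library left out, 51 to 54 of the 55 members stayed positive, with median differences of 1.24 to 1.79. In those fits 1 group holds a lone library, which has no spread of its own.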

How the data were processed

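The authors deposited FPKM values in 2 tables, the first with the libraries numbered 2 and the second with those numbered 3. Per the submitters' processing notes, the mm10 build was used with STAR 2.4.2 and Cufflinks 2.2.1, beside Trimmomatic 0.35, bcl2fastq 1.8.4 and FastQC 0.10.1. No source used here gives the annotation, the normalization options or the use of strand, so overlapping and antisense genes are uncertain. GENCODE M21 (GRCm38) named 36423 of 38282 IDs. Low values fell near whole multiples of 1 fragment, worth 0.146 to 0.195 FPKM on 1 kb, after 136 to 148 bases were taken off each transcript length; about 90% (89.7% to 90.8%) lay within 0.15 of a whole number.

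The 11423 genes with a mean of 1 FPKM or more were tested with limma 3.58.1 (R 4.3.3; lmFit, eBayes with trend, two-sided) on log2(FPKM + 1), a scale that understates changes of low genes. The table, equal to the replicate number, was a block, and a call was an adjusted p under 0.05. The script was tested on simulated data. The labels name no separate cultures or animals, so the p-values reflect only how these samples vary, and that variation may be technical. Members and lists were chosen with earlier results of these data known. Named members were, per class, the 3 most abundant, the 2 largest and 2 smallest differences, those not called, and those outside chromosome 13; list genes were 10 chosen ones and up to 4 called per list. Others were named with their values known. The alternatives tried were pseudocounts of 0.1 and 5, other filters, scalings, moderation, no block, a library left out, protein-coding genes only and a GC and length correction (loess, span 0.3).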

Additional observations from a re-analysis of the deposited data

How the results depend on the processing

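The count of 46 members called higher was 45 or 46 under both other pseudocounts, both other filters, the 3 scalings and with protein-coding genes only. It was 37 with no replicate block, 23 without the trend and 39 (and 1 lower) with the replicate block and the GC and length correction. With that correction fitted without the members it was 41. With a library left out, fewer samples enter the fit, with no block, and the lone library of a group is assumed to vary like the others. Counts of calls are not given for those fits, and the calls were not shown to hold in them. Over all genes, 1218 of 11423 were called in either direction in the main fit, 496 with no block and 256 without the trend. With the GC and length correction 895 of 11284 were called, and 928 of 11284 when it was fitted without the members. A common sum gave 1440 of 11423, small RNA left out 1861 of 11198 and protein-coding genes only 1984 of 10153. Pseudocounts of 0.1 and 5 gave 1537 and 1032 of 11423. No filter gave 740 of 22356, a filter of 5 FPKM 1228 of 8188 and a scaling by the median of ratios 1212 of 11423. Counts of list genes under a setting are to be read against its total. The same-numbered libraries' deviations had a correlation of 0.09, so the block models the table and no pairing was shown. The median difference, 1.44, was 1.03 with the GC and length correction and 1.24 to 1.79 with a library left out, the highest without Th0+Dopa 3; elsewhere it lay between 1.18 and 1.56. The log2 ratio of the H1 sum moved from 0.80 to 0.55 with a common sum and to 0.66 with small RNA left out first, and that of H2B from 1.24 to 0.98 with a common sum; the other class ratios moved by less than their spread between tables. Of the 5 lists, 1 gene (a replication-independent histone gene) was called without the trend. With no replicate block 2 replication-independent histone genes were called higher and 1 chaperone gene lower. The transcription and processing list had 1 higher with pseudocount 5, 1 higher and 0 lower with no filter, 1 higher and 3 lower with a common sum, 3 lower with small RNA left out, 0 lower with either GC and length correction and 2 lower with protein-coding genes only. Chaperone genes called lower were 6 with either common-sum scaling and 1 with either correction. DNA replication genes called higher were 5 with pseudocount 0.1, 1 with no filter, a common sum or either correction, and 7 (1 lower) with protein-coding genes only, and 2 were lower with small RNA left out. Mitosis genes called lower were 8 with a common sum, 9 with small RNA left out and 3 with protein-coding genes only, and 1 was higher with either correction or protein-coding genes only. Replication-independent histone genes had 2 lower with a common sum, 1 lower with small RNA left out and 4 higher with protein-coding genes only. Signs turned for these genes, of which Hist1h2ag, Hist1h2ai and Hist1h2ah were called in the report. A common sum gave -0.065 for Hist1h1a, -0.022 for Hist3h2bb-ps, -0.0029 for Hist2h3c2 and -0.18 for Chaf1a, and Chaf1a was at -0.079 with small RNA left out. The GC and length correction, first with and then without the members in its fit, gave -0.72 and -0.47 for Hist1h2ai, -0.57 and -0.35 for Hist1h2ah, -0.59 and -0.45 for Hist1h2ap, -0.71 and -0.57 for Hist1h2ao, -0.17 and -0.094 for Hist3h2bb-ps, 0.030 and 0.038 for Hist2h2be, -0.21 and -0.22 for Hist2h3c2, -0.064 and -0.063 for Chaf1a, 0.085 and 0.088 for Npat, 0.26 and 0.26 for Pcna and 0.078 and 0.080 for Slbp, and -0.083 for Hist1h2ag with them. With a library left out, the lowest and highest values were -0.91 and 0.30 for Hist1h2br, -0.27 and 0.012 for Hist2h3c1 and -0.15 and 0.46 for Hist2h3c2. They were -0.087 and 0.0046 for Pcna and -0.14 and 0.13 for Slbp. The cause of these changes was not tested.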
